A study of Mus musculus with 6 samples.

Results

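A set of 36 cell cycle genes was followed in the lungs of mice injected with tumour cell conditioned medium: 11 genes of DNA replication and 25 genes of mitosis. They were taken by gene symbol from the annotation of a mouse gene array that names 21630 genes. Of the 41 probe sets with these symbols, the one with the highest mean over the 6 arrays stood for its gene. The replication genes were Mcm2 to Mcm7, Pcna, Uhrf1, Rrm1, Rrm2 and Tyms. The mitosis genes were Ccna2, Ccnb1, Ccnb2, Cdk1, Plk1, Aurka, Aurkb, Birc5, Melk, Bub1, Bub1b, Ttk, Cdc20, Kif11, Kif20a, Kif23, Cenpe, Cenpf, Nusap1, Tpx2, Prc1, Ect2, Anln, Mki67 and Top2a.

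All mice were C57BL/6, 8 weeks old, and received an intraperitoneal injection of 100 uL each day for 7 days. Mice of the LN4 group, replicates 1 and 3, were given the conditioned medium of PC3M-LN4 cells, a metastatic derivative of the human prostate cancer line PC3. Mice of the PC3 group, replicates 4 and 5, were given that of PC3 cells themselves, and the Control group (replicates 2 and 4) was labelled as RPMI medium. Each group held 2 mice, with 1 array of whole lung RNA per mouse. The protocols describe injections of medium and none of cells, and the comparisons ask how lung RNA differed after each medium.

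A dividing cell first licenses its replication origins by loading the MCM helicase, then copies its DNA with the help of the PCNA clamp and a supply of deoxynucleotides, and afterwards condenses and separates its chromosomes. Replication genes are largely transcribed in late G1 and S phase under E2F transcription factors. Mitosis genes are instead transcribed in G2 under the B-MYB and FOXM1 complexes, which act through CHR elements. CCAAT boxes neighbour these elements in many such promoters. Most cells of a healthy adult lung are not dividing, and transcripts of these genes are therefore scarce in whole lung RNA. In such bulk samples, fewer cycling cells and less RNA per cycling cell cannot be told apart.

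The promoters of the 36 genes were read from RefSeq windows on GRCm38.p6 that run from 250 bases before to 50 bases after the annotated start, 300 bases in all. Of the 36 genes, 31 had a window, and Uhrf1, Mcm7, Prc1 and Ect2 had 2 each. A gene was counted if any of its windows held the motif. For printing and for the motif map, the first window listed with an E2F core was taken, or else the first window. Mcm4, Ccna2, Aurkb, Kif20a and Tpx2 are named only. The 3 sequence motifs were searched on both strands: an E2F core (TTCCCGC or TTGGCGC), a CHR element (TTTGAA) and a CCAAT box (CCAAT). These letters were settled after several forms of each motif had been tried on the same windows, so the counts describe these windows and test nothing. The E2F core stood in 6 of 10 replication genes and in 4 of 21 mitosis genes, beside 7.79% of 27025 genes with a window. With 1 more T in front it stood in 4 of 10 replication genes and 0 of 21 mitosis genes, beside 1.8% of all genes. The CHR element stood in 1 of 10 replication genes, Mcm2, and in 15 of 21 mitosis genes, beside 20.2% of all genes. The CCAAT box stood in 9 of 10 replication genes and 17 of 21 mitosis genes, beside 41.1% of all genes. The E2F core and the CCAAT box can share bases, and in the Mcm7 window shown here 1 pair did. Among the mitosis genes counted, the E2F cores of Ccnb1 and Ect2 shared bases with a CCAAT box too. Windows with no match hold none of these letters, and nothing follows from that about the factors.

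The 6 windows below are printed because they carry the motif arrangements of both classes and belong to genes described below. The replication genes come first: Uhrf1, whose difference from Control was the furthest from 0 among replication genes in LN4 lungs, and the helicase genes Mcm7 and Mcm6. The mitosis genes follow: Cdk1, Kif11 and Cenpf. Capitals mark the motifs, and each sequence runs 5′ to 3′ on the gene's own strand.
Uhrf1, chr17:56303087-56303386, plus strand: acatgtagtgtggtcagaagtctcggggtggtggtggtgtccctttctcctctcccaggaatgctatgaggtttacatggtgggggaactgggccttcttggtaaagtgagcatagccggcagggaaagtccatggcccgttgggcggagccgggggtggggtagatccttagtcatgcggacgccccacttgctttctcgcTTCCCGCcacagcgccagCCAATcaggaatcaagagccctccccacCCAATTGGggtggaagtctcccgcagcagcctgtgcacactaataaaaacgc
Mcm7, chr5:138171834-138172133, minus strand: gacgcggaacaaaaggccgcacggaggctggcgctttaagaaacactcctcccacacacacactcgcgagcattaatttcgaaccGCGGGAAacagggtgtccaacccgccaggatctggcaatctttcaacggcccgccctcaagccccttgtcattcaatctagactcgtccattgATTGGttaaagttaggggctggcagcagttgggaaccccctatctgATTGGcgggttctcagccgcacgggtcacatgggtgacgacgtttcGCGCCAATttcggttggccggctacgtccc
Mcm6, chr1:128359656-128359955, minus strand: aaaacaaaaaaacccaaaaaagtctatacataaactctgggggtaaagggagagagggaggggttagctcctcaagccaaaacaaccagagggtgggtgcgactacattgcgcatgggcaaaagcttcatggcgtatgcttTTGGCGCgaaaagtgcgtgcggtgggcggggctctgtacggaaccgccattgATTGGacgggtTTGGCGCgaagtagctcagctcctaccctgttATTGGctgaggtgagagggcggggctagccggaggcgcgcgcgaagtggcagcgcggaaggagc
Cdk1, chr10:69352863-69353162, minus strand: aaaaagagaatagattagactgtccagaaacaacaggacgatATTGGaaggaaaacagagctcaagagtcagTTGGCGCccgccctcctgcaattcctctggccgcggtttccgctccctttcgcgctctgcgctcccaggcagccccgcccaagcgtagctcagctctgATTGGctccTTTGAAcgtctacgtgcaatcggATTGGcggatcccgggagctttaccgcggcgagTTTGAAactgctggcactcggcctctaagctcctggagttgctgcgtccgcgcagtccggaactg
Kif11, chr19:37376132-37376431, plus strand: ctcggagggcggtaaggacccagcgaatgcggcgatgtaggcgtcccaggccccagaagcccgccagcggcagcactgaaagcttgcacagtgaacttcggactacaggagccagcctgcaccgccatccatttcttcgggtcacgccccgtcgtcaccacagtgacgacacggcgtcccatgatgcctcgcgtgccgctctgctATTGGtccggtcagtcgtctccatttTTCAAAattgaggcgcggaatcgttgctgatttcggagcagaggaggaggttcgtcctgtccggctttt
Cenpf, chr1:189688037-189688336, minus strand: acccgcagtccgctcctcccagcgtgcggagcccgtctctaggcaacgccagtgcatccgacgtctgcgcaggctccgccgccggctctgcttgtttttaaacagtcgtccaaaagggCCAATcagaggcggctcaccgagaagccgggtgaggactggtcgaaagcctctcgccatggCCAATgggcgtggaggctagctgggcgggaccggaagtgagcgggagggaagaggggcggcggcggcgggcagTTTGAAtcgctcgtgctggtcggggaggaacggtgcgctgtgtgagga

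The E2F core began 48 bases before the start in Uhrf1, 109 and 46 bases before it in Mcm6, and 165 bases before and 20 bases after it in Mcm7. In these 3 windows there was no CHR element. Kif11 had its CHR element 19 bases before the start and Cenpf had it 2 bases after the start, each with a CCAAT box upstream and without an E2F core. Cdk1 held both kinds, with an E2F core 178 bases before the start and CHR elements 71 and 15 bases before it. Ect2 and Mki67 were the other mitosis genes with both an E2F core and a CHR element. Ccnb1 had an E2F core and CCAAT boxes but no CHR element.

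**Figure D1:**
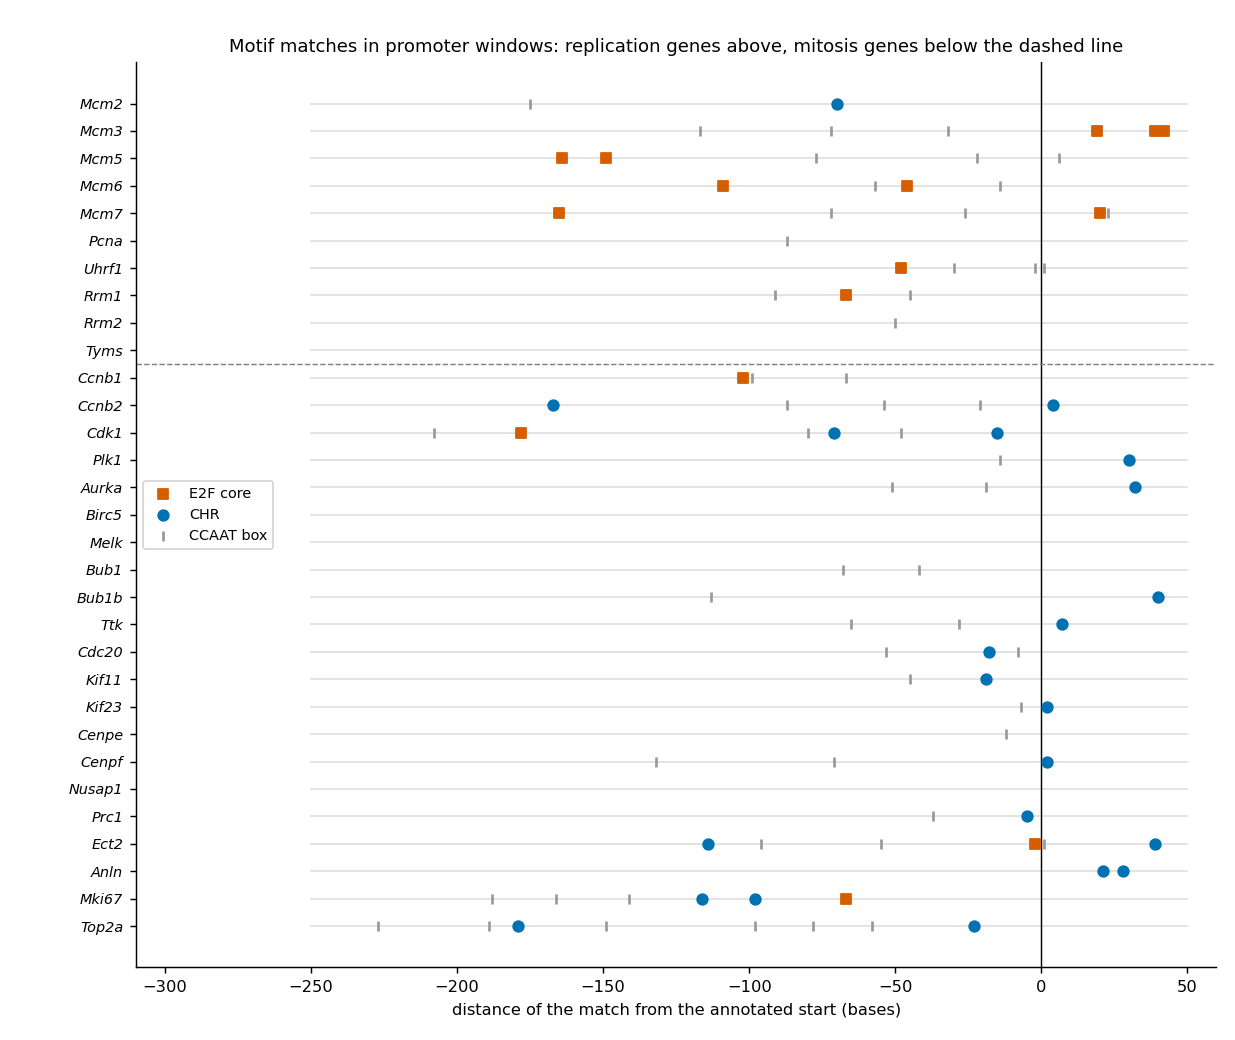
Matches of the E2F core, CHR element and CCAAT box in a single promoter window per gene, for the 31 genes that have a window. Position is the distance in bases from the annotated start, and replication genes stand above mitosis genes. E2F matches stand in 6 of 10 replication genes and CHR matches in 15 of 21 mitosis genes.

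Levels are given as deposited, on the log2 scale of RMA, where 1 unit is a doubling of normalized signal. Raw depth has no counterpart on arrays, and the number of arrays limits the precision. The 95th percentile of the array's negative control probe sets lay between 7.37 and 7.69 in the 6 arrays, and genes under it are near background. The percent of probe sets that the chip report gave as detected was 35.4% and 46.1% in LN4 lungs, 39.8% and 50.9% in PC3 lungs, and 38.4% and 48.4% in Control lungs, so that each group held 1 array of lower and 1 of higher detection. Markers of lung epithelium (10 of 10) and lung endothelium (6 of 6) were above the negative controls' 95th percentile on all arrays. Against Control, the epithelium markers had a lower mean in LN4 lungs for 9 of 10 genes, with a median of -0.25, and the endothelium markers for 6 of 6, with a median of -0.30. Their medians over the Control mean were -0.34 and -0.47 in LN4 replicate 3, and -0.07 and -0.12 in LN4 replicate 1. Erythroid markers had a higher mean than in Control lungs for 7 of 8 genes in both LN4 and PC3 lungs, with medians of 0.11 and 0.21. They stood at 0.33 in LN4 replicate 3 and -0.01 in LN4 replicate 1, and 2 of 8 were above the negative controls' 95th percentile on each array. Markers of stratified squamous epithelium, a tissue that lines the upper airway and oesophagus, stood above it for 9 of 10 genes in LN4 replicate 3 and 4 of 10 in PC3 replicate 4, and for 0 of 10 in the other arrays. Their median level over the Control mean was 0.22 and 5.88 in LN4 lungs, 1.02 and -0.02 in PC3 lungs, and within 0.01 of 0 in Control lungs. Skeletal muscle markers were 4.17 over the Control mean in LN4 replicate 3, where 7 of 8 passed the same limit, and within 0.15 of it elsewhere. B cell markers had lower means in both LN4 and PC3 lungs than in Control lungs for 8 of 8 genes, with median differences of -0.60 and -0.43. On each array, 0 to 2 of these 8 were above the negative controls' 95th percentile. The part of these marker levels in the results below was not tested. LN4 replicate 3 correlated with the other arrays at 0.918 to 0.933 over the tested probe sets, while all other pairs lay between 0.961 and 0.990.

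The cell cycle genes themselves were dim. Pcna and Rrm1 were above the negative controls' 95th percentile on all 6 arrays, Mcm6 on 4, Mcm7 on 3 and Mcm4 on 1. The remaining 31 genes, all 25 mitosis genes among them, were above it on none, as were 12927 of the 21630 named genes. The mean levels of all 36 genes lay between the 33.6th percentile of the negative controls (Ttk) and the 98.8th (Pcna). The mitosis genes Bub1, Ttk, Cenpe and Nusap1 were among the dimmest 25% of probe sets that was left out of testing, and 32 of the 36 genes were tested.

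With all 6 arrays, no probe set differed between groups after correction in any of the 3 comparisons. All 3 were taken from a limma fit of the 6 arrays, with Benjamini-Hochberg adjustment over 21330 probe sets. The share called at an adjusted p of 0.05 was 0% of 21330 in each comparison, and so 0 of the 32 tested cell cycle genes were called. At an unadjusted p under 0.05 there were 477 probe sets in PC3 against Control, 437 in LN4 against Control and 1094 in LN4 against PC3. Without LN4 replicate 1, the LN4 group was the single array LN4 replicate 3, which held squamous and muscle markers. Probe sets passed in LN4 against Control and in LN4 against PC3 of that fit, with no tested cell cycle gene among them. Without both LN4 replicate 3 and PC3 replicate 4, the spread came from the 2 Control arrays alone. Probe sets passed in each comparison of that fit, and their number is not read here. PC3 minus Control was then 0.73 for Mcm4 and 0.80 for Top2a. LN4 minus PC3 was -0.78 for Rrm1, -0.88 for Mcm6 and -0.84 for Top2a. These genes were picked after the values of that fit were seen, because they passed there as other probe sets did. LN4 and PC3 had 1 array each in that fit. With 2 mice per group, an exact permutation test of 1 gene cannot go below a two-sided p of 0.3333. What follows is therefore a description of levels and of the spread between mice, and p-values are unadjusted unless they are said to be adjusted. The 2 comparisons with Control share the Control arrays, so their values stand side by side and are no support for each other.

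**Figure D2:**
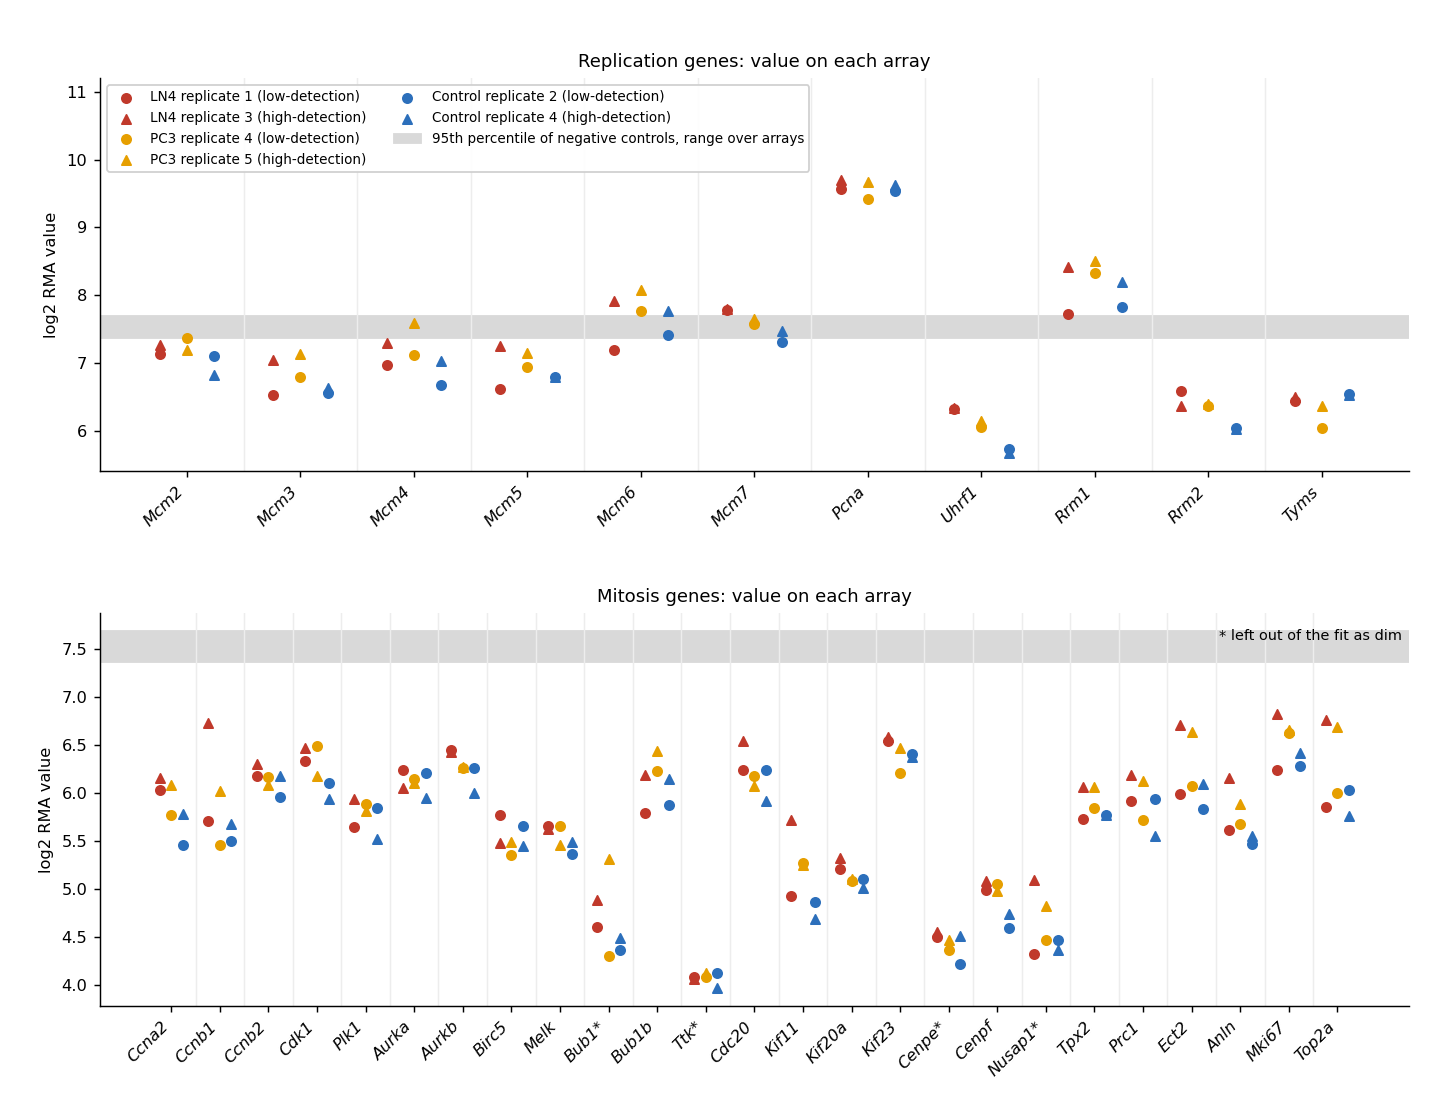
Log2 RMA value of each of the 36 genes in every array, with replication genes and mitosis genes apart, and groups in the order LN4, PC3 and Control. Pcna and Rrm1 lie highest on average, and the mitosis genes lie between 3.97 and 6.82.

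In PC3 lungs, replication genes mostly had higher means than in Control lungs. The mean was higher for 9 of 11 replication genes, beside 53.4% of all tested probe sets (46.6% had a lower mean), with a median difference of 0.33 beside 0.02 over all tested probe sets. Both PC3 arrays lay above both Control arrays for 8 of the 11, beside 16.4% of all probe sets, and below them for 1, Tyms, beside 15.3%. The mean was higher for 19 of the 21 tested mitosis genes too, with a smaller median difference of 0.18, and the arrays did not overlap for 8 of them. The single gene with an unadjusted p under 0.05 was Uhrf1, beside 0.525% of probe sets that were higher and 1.71% that were lower at that limit. No gene passed after adjustment (adjusted p = 1, limma). Without PC3 replicate 5 the medians were 0.20 for replication and 0.11 for mitosis genes, and without PC3 replicate 4, the array with squamous markers, they were 0.36 and 0.29.

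In LN4 lungs, mitosis genes had the higher median difference from Control. The mean was higher for 20 of 21 tested mitosis genes and 9 of 11 replication genes, beside 46.9% of all tested probe sets (53.1% had a lower mean), with median differences of 0.31 and 0.19 beside -0.02 over all. Both LN4 arrays lay above both Control arrays for 11 mitosis and 4 replication genes, beside 12% of all probe sets, and below them for 1 replication gene, Tyms, beside 16.9%. Uhrf1 and Rrm2 had an unadjusted p under 0.05, beside 0.849% of probe sets that were higher and 1.2% that were lower at that limit, and neither passed after adjustment (adjusted p = 0.9997, limma). LN4 replicate 3, the array with squamous and muscle markers, bore on these medians. Without it, the mean was higher for 5 of 11 replication genes with a median of -0.02, and the mitosis median was 0.15. Without LN4 replicate 1 the medians were 0.40 and 0.42.

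Between LN4 and PC3 lungs the median differences were near 0. The mean was higher in LN4 lungs for 5 of 11 replication genes and 15 of 21 tested mitosis genes, beside 47.8% of all tested probe sets (52.2% had a lower mean), with median differences of -0.08 and 0.08 beside -0.01 over all. The LN4 arrays lay above the PC3 arrays for 3 replication and 5 mitosis genes, beside 11.4% of all probe sets, and below them for 1 mitosis gene, Bub1b, beside 18.1%. None of the 32 had an unadjusted p under 0.05, beside 2.2% of probe sets that were higher and 2.93% that were lower, and the lowest adjusted p among them was 0.848 (limma). Without LN4 replicate 3 the medians were -0.14 and -0.002, and without LN4 replicate 1 they were 0.08 and 0.18.

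**Figure D3:**
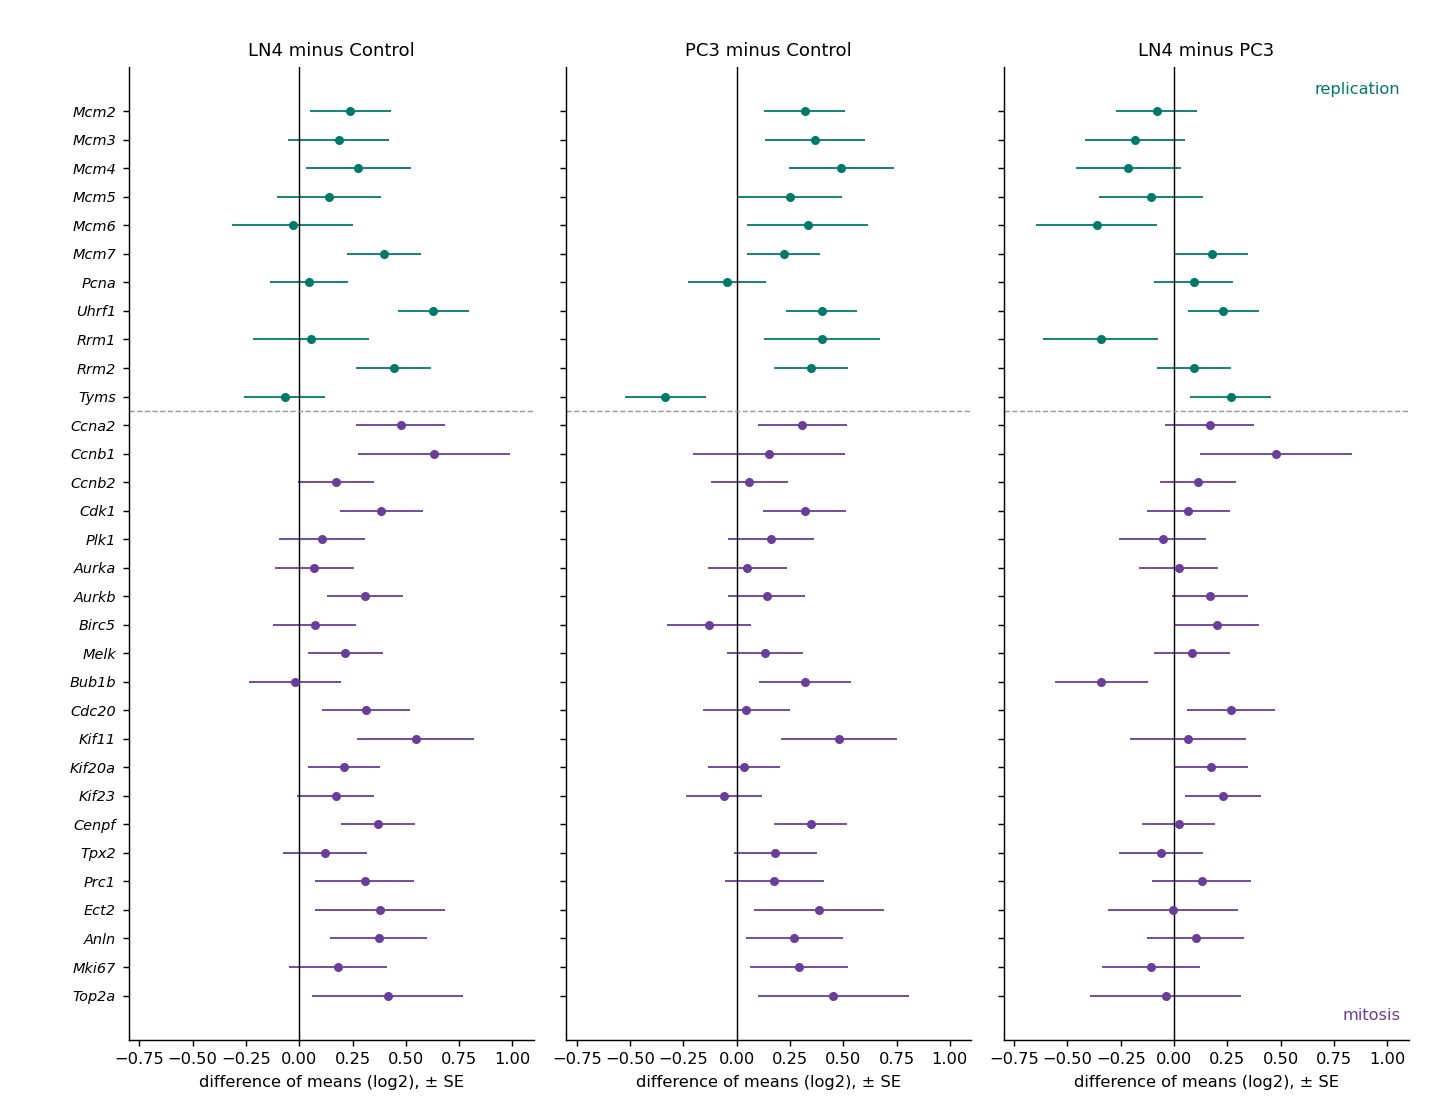
Difference in mean log2 value for each tested gene, LN4 minus Control, PC3 minus Control and LN4 minus PC3. Bars are ± the standard error from the limma fit and are narrower than 95% confidence intervals. The unadjusted 95% intervals, which are not drawn, lie above 0 for Uhrf1 and Rrm2 in LN4 minus Control, at 0.23 to 1.03 and 0.03 to 0.86. That of Uhrf1 in PC3 minus Control does too, at 0.0014 to 0.79.

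The MCM genes encode the 6 subunits of the replicative helicase. Mcm2 was at 7.13 and 7.26 in LN4 lungs, 7.36 and 7.20 in PC3 lungs, and 7.10 and 6.82 in Control lungs. The LN4 and PC3 arrays thus all lay above the Control arrays, in LN4 replicate 1 by a margin of 0.04 over Control replicate 2. The difference from Control was 0.24 ± 0.19 for LN4 and 0.32 ± 0.19 for PC3 (± is the standard error here and below, n = 2 per group, adjusted p 0.9997 and 1, limma), and LN4 minus PC3 was -0.08. Mcm4 was at 6.97 and 7.30 in LN4 lungs, 7.11 and 7.58 in PC3 lungs, and 6.68 and 7.03 in Control lungs. The PC3 and Control arrays did not overlap, with a difference of 0.49 ± 0.25 or 1.41-fold, whereas LN4 and Control arrays did overlap.

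Mcm5 was at 6.62 and 7.26 in LN4 lungs, 6.94 and 7.15 in PC3 lungs, and 6.80 in both Control lungs. The 2 LN4 lungs fell on either side of Control, with 0.14 ± 0.24 for LN4 minus Control and 0.25 ± 0.24 for PC3 minus Control. Without LN4 replicate 3 the LN4 difference was -0.18. Mcm7 was the subunit gene with the steadiest LN4 values, at 7.78 and 7.80 in LN4 lungs, 7.58 and 7.64 in PC3 lungs, and 7.31 and 7.47 in Control lungs. The 3 groups did not overlap, and LN4 minus Control was 0.40 ± 0.17, with an unadjusted p of 0.0545 (limma).

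Mcm6 was at 7.20 and 7.92 in LN4 lungs, 7.77 and 8.08 in PC3 lungs, and 7.41 and 7.77 in Control lungs. The groups overlapped, with LN4 replicate 1 the lowest and PC3 replicate 5 the highest array, and LN4 minus PC3 was -0.36 ± 0.28. Mcm3 was at 6.52 and 7.04 in LN4 lungs, 6.79 and 7.14 in PC3 lungs, and 6.56 and 6.64 in Control lungs. Its PC3 arrays lay above both Control arrays, by 0.37 in the mean, and its LN4 arrays lay on either side of them.

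Pcna, the sliding clamp that holds DNA polymerase on its template, was the brightest of the 36 genes and nearly flat across groups. It was at 9.57 and 9.70 in LN4 lungs, 9.41 and 9.67 in PC3 lungs, and 9.54 and 9.63 in Control lungs. LN4 minus Control was 0.05, with a 95% interval of -0.39 to 0.48, and PC3 minus Control was -0.05. A second probe set with the Pcna symbol gave 0.02 and -0.08.

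Uhrf1, which recruits the maintenance DNA methyltransferase to newly copied DNA, was at 6.32 and 6.34 in LN4 lungs, 6.06 and 6.14 in PC3 lungs, and 5.74 and 5.67 in Control lungs. The LN4 arrays lay above the PC3 arrays and these above the Control arrays, with no overlap. The difference from Control was 0.63 ± 0.17 or 1.55-fold for LN4 (unadjusted p = 0.00725, limma) and 0.40 ± 0.17 or 1.32-fold for PC3 (unadjusted p = 0.0494, limma). LN4 minus PC3 was 0.23 ± 0.17, and none of the 3 passed after adjustment. The E2F core printed above lies in 1 of the 2 Uhrf1 windows, and the other held none.

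Rrm1 and Rrm2 encode the subunits of ribonucleotide reductase, which makes deoxynucleotides, and Tyms encodes thymidylate synthase. Rrm2 was at 6.58 and 6.37 in LN4 lungs, 6.37 and 6.39 in PC3 lungs, and 6.05 and 6.02 in Control lungs. Both sets of treated arrays lay above the Control arrays, by 0.44 ± 0.17 for LN4 (unadjusted p = 0.0395, limma) and 0.35 ± 0.17 for PC3, while LN4 minus PC3 was 0.09. Rrm1 was at 7.73 and 8.41 in LN4 lungs, 8.33 and 8.50 in PC3 lungs, and 7.83 and 8.20 in Control lungs. Its PC3 arrays were above the Control arrays by 0.40 ± 0.27, and its LN4 arrays spanned those of Control.

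Tyms had another order. It was at 6.45 and 6.49 in LN4 lungs, 6.03 and 6.37 in PC3 lungs, and 6.55 and 6.53 in Control lungs. The LN4 arrays lay below both Control arrays, by a mean difference of -0.07. Both PC3 arrays were below all LN4 and Control arrays, at -0.33 ± 0.19 against Control and with LN4 minus PC3 at 0.27 ± 0.19. None of these differences passed the test.

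Among the mitosis genes, Cdk1 encodes the kinase that drives entry into mitosis, and Ccna2, Ccnb1 and Ccnb2 encode its cyclins. Cdk1 was at 6.34 and 6.47 in LN4 lungs, 6.50 and 6.18 in PC3 lungs, and 6.10 and 5.94 in Control lungs. The LN4 and PC3 arrays lay above the Control arrays, by 0.39 ± 0.19 and 0.32 ± 0.19, and the LN4 and PC3 arrays overlapped. Ccna2 was at 6.03 and 6.16 in LN4 lungs, 5.77 and 6.09 in PC3 lungs, and 5.46 and 5.78 in Control lungs. LN4 was above Control without overlap, by 0.48 ± 0.21 (unadjusted p = 0.0571, limma), and PC3 minus Control was 0.31 ± 0.21, with PC3 replicate 4 just under Control replicate 4.

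Ccnb1 had the most uneven LN4 lungs of the cyclins. It was at 5.71 and 6.73 in LN4 lungs, 5.46 and 6.03 in PC3 lungs, and 5.50 and 5.68 in Control lungs. LN4 minus Control was 0.63 ± 0.36, made of 0.21 between the arrays of lower detection and 1.05 between those of higher detection. PC3 minus Control was 0.15 ± 0.36. The 2 further probe sets with the Ccnb1 symbol gave 0.51 and 0.52 for LN4 minus Control, and on all 3 the LN4 replicate 3 array was the highest of the 6. Ccnb2 had a mean difference from Control of 0.17 in LN4 and 0.06 in PC3 lungs, with overlapping arrays.

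The mitotic kinases and their partner Birc5, or survivin, had mean differences from Control of at most 0.31. Aurkb, the kinase of the chromosomal passenger complex, was at 6.45 and 6.43 in LN4 lungs, 6.27 and 6.28 in PC3 lungs, and 6.26 and 6.00 in Control lungs. The 3 groups did not overlap, although PC3 replicate 4 and Control replicate 2 were 0.01 apart, and LN4 minus Control was 0.31 ± 0.18. Melk was higher in LN4 lungs by 0.22 without overlap, and Plk1 and Aurka, which build the spindle poles, differed from Control by 0.05 to 0.16 with overlap. Birc5 was at 5.77 and 5.48 in LN4 lungs, 5.35 and 5.49 in PC3 lungs, and 5.66 and 5.45 in Control lungs, with all groups overlapping and an LN4 minus PC3 difference of 0.20 ± 0.20.

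The spindle checkpoint holds the cell in metaphase until every chromosome is attached, and Cdc20 releases it. Bub1b, a checkpoint protein, was at 5.79 and 6.19 in LN4 lungs, 6.23 and 6.44 in PC3 lungs, and 5.88 and 6.14 in Control lungs. It was the tested mitosis gene whose LN4 arrays both lay below the PC3 arrays, by -0.34 ± 0.22 with a 95% interval of -0.86 to 0.17, and PC3 minus Control was 0.32 ± 0.22. Cdc20 was at 6.25 and 6.54 in LN4 lungs, 6.18 and 6.07 in PC3 lungs, and 6.24 and 5.92 in Control lungs. Its LN4 arrays lay above the others, by 0.31 ± 0.21 over Control and 0.27 ± 0.21 over PC3, with LN4 replicate 1 and Control replicate 2 at nearly the same level. Bub1 and Ttk, which were too dim to be tested, ranged from 4.30 to 5.32 and from 3.97 to 4.13.

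Kif11, the motor that pushes the spindle poles apart, was at 4.93 and 5.72 in LN4 lungs, 5.27 and 5.25 in PC3 lungs, and 4.87 and 4.69 in Control lungs. Both treated groups lay above Control. The PC3 difference was 0.48 ± 0.27, with 0.40 and 0.56 in the pairs of lower and higher detection. The LN4 difference of 0.55 ± 0.27 was made of 0.06 and 1.03. Cenpf, a kinetochore protein, was steadier, at 4.99 and 5.09 in LN4 lungs, 5.05 and 4.98 in PC3 lungs, and 4.59 and 4.74 in Control lungs. Its differences from Control were 0.37 ± 0.17 for LN4 and 0.35 ± 0.17 for PC3, without overlap. Both genes were near background, with mean levels at the 59.7th (Kif11) and 54.7th (Cenpf) percentile of the negative controls.

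Kif23, a motor of the central spindle, was at 6.55 and 6.59 in LN4 lungs, 6.21 and 6.47 in PC3 lungs, and 6.41 and 6.38 in Control lungs. The LN4 arrays lay above the others, by 0.23 ± 0.18 over PC3. Kif20a and Kif23 were higher in LN4 than in Control lungs by 0.21 and 0.17 without overlap, and Tpx2 and Prc1, which organise spindle microtubules, by 0.12 and 0.31 with overlap. Ect2 and Anln, which act at the cleavage furrow, had LN4 minus Control differences of 0.38 and 0.37 and PC3 minus Control differences of 0.39 and 0.27. A second probe set of Anln gave 0.12 for LN4 minus Control. Cenpe and Nusap1 were too dim to be tested and ranged from 4.22 to 4.56 and from 4.32 to 5.09.

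Mki67 and Top2a, the most used proliferation markers, encode the protein that coats mitotic chromosomes and the topoisomerase that untangles them. Mki67 was at 6.25 and 6.82 in LN4 lungs, 6.63 and 6.66 in PC3 lungs, and 6.28 and 6.42 in Control lungs. The PC3 arrays lay above Control by 0.29 ± 0.23 without overlap. The LN4 arrays lay on either side of Control, at 0.18 ± 0.23 in the mean and -0.11 without LN4 replicate 3. Top2a was at 5.85 and 6.77 in LN4 lungs, 6.01 and 6.69 in PC3 lungs, and 6.03 and 5.76 in Control lungs. LN4 replicate 3 and PC3 replicate 5 stood above the other 4 arrays, which lay between 5.76 and 6.03, and both mean differences from Control, 0.41 ± 0.36 and 0.45 ± 0.36, rested on them. Without LN4 replicate 3, LN4 minus Control was -0.04. A second probe set with the Top2a symbol was too dim to be tested, at 3.02 to 3.17.

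The level of the genes as 2 lists was uneven within the LN4 and PC3 pairs. The median level over the Control mean was -0.02 and 0.40 in LN4 lungs, 0.20 and 0.36 in PC3 lungs, and -0.04 and 0.04 in Control lungs for replication genes. It was 0.15 and 0.42 in LN4 lungs, 0.11 and 0.29 in PC3 lungs, and 0.01 and -0.01 in Control lungs for mitosis genes. LN4 replicate 3 was the highest of the 6 arrays for 18 of the 32 tested genes, 14 of them mitosis genes, beside 19.6% of all tested probe sets. PC3 replicate 5 was the highest for 6 of the 32, which is no more than its 22.5% of all probe sets, and Control replicate 4 for 0, beside 8.05%. The squamous markers were at 5.88 over the Control mean in LN4 replicate 3 and at -0.02 in PC3 replicate 5, and their part in the levels was not tested.

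**Figure D4:**
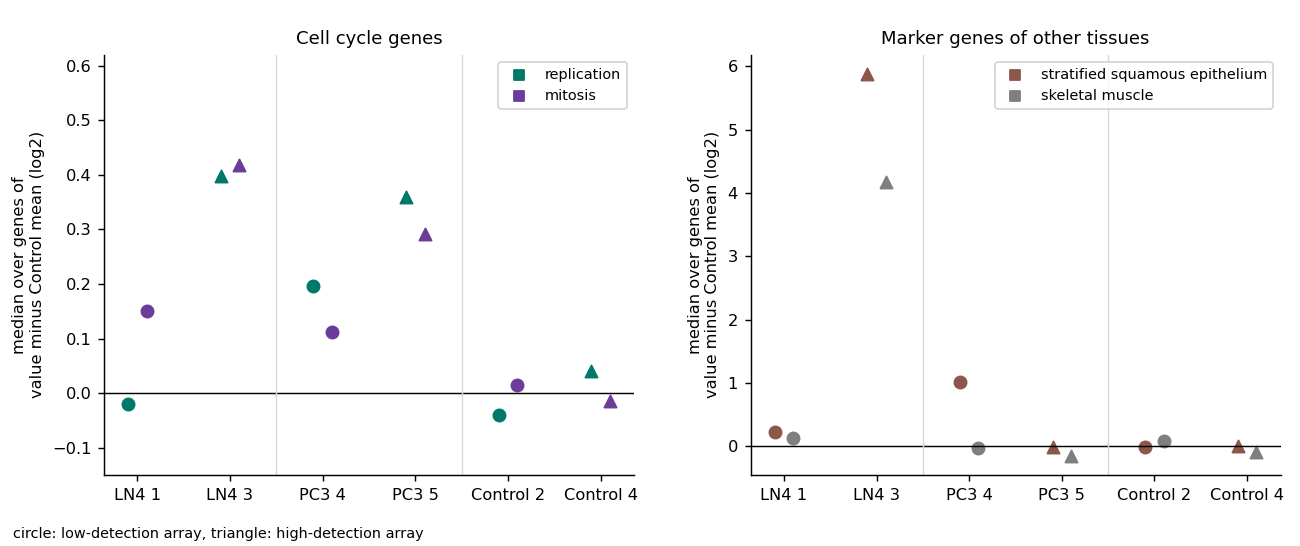
Median level of the tested replication and mitosis genes in each array, as the log2 difference from the Control mean of each gene, with groups in the order LN4, PC3 and Control. LN4 replicate 3 and PC3 replicate 5 are the highest arrays for both lists, at 0.40 and 0.36 for replication and 0.42 and 0.29 for mitosis genes.

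Array detection was set beside these levels. The high-detection array of a group lay above its low-detection array in the mean over groups for 9 of 11 replication genes and 14 of 21 mitosis genes, beside 46.3% of all tested probe sets. The median gap was 0.16 and 0.09, beside -0.03 over all. The high-detection array lay above in all 3 groups for 6 of 11 replication genes and for 6 of 21 mitosis genes (28.6%), beside 20.7% of all probe sets. Between the 2 Control lungs the mitosis median ran the other way, at 0.01 in the low-detection and -0.01 in the high-detection array. Each comparison was therefore also made between the 2 low-detection arrays and between the 2 high-detection arrays. The high-detection LN4 array was replicate 3, with squamous and muscle markers, and the low-detection PC3 array was replicate 4, with squamous markers. Detection class and these markers therefore cannot be told apart within the LN4 and PC3 groups. PC3 minus Control was positive in both pairs for 9 of 11 replication genes and 11 of 21 mitosis genes, beside 31.4% of all probe sets. Its replication median was 0.27 between low-detection and 0.35 between high-detection arrays, and its mitosis median was 0.07 and 0.27. LN4 minus Control was positive in both pairs for 6 replication and 15 mitosis genes, beside 24.3%. Its medians were 0.02 and 0.32 for replication and 0.11 and 0.40 for mitosis genes. Uhrf1 (0.59 and 0.67), Rrm2 (0.53 and 0.35), Mcm7 (0.47 and 0.32), Ccna2 (0.57 and 0.38) and Cenpf (0.39 and 0.34) had LN4 minus Control differences above 0.3 in both pairs, although those of Rrm2 and Ccna2 were over 1.5 times larger in the low-detection pair. Apart from Mcm7, these genes were under the negative controls' 95th percentile on every array, and the mean level of Cenpf lay at their 54.7th percentile.

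**Figure D5:**
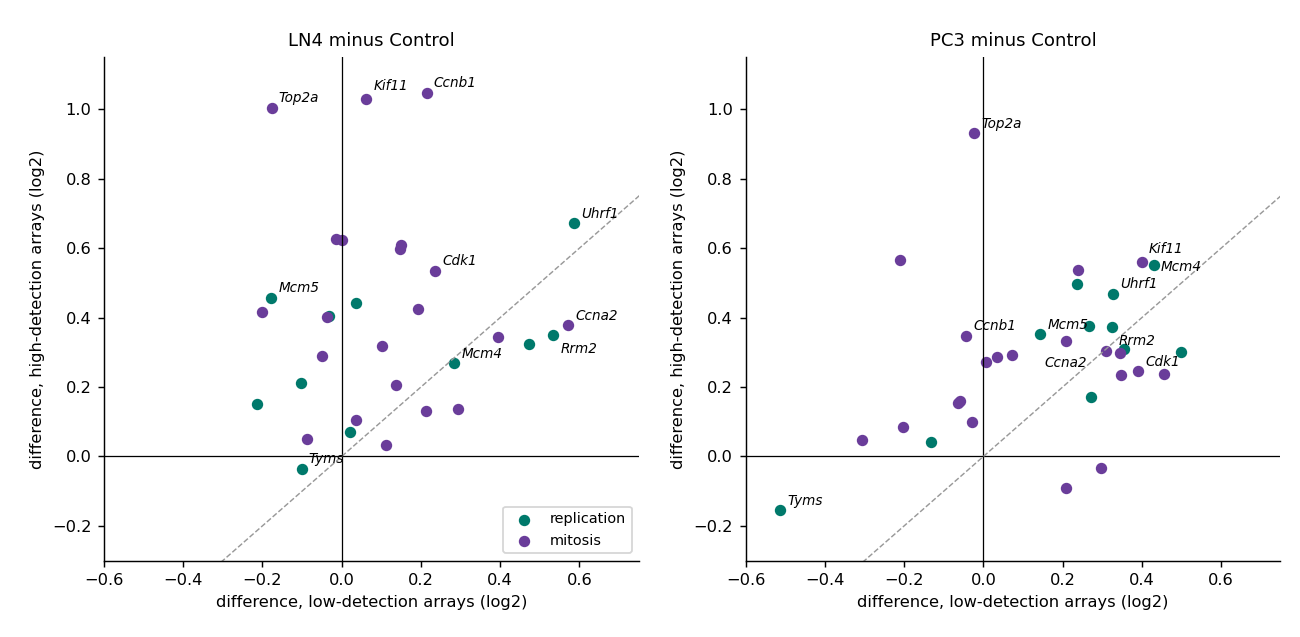
Difference of each tested gene from Control in the high-detection arrays (vertical axis, log2) against that in the low-detection arrays (horizontal axis, log2), for LN4 and PC3, with a dashed line of equality. Uhrf1, Rrm2 and Ccna2 lie closer to the line in LN4 minus Control, while Top2a, Kif11 and Ccnb1 lie far above it, at 1.01, 1.03 and 1.05 against -0.18, 0.06 and 0.21.

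Other genes of the same processes were read from lists that share no gene with the 36, and none of them passed the test in either direction. Of 34 other replication genes, such as origin recognition, polymerase and primase genes, 32 were tested. Their mean was higher for 20 in LN4 and 19 in PC3 lungs than in Control lungs, with median differences of 0.06 and 0.04. Over all tested probe sets the mean was higher for 46.9% in LN4 and 53.4% in PC3 lungs, with medians of -0.02 and 0.02, so the PC3 values of this list lay close to those of all. Cdc6, which loads the MCM helicase onto origins, was at 6.28 and 6.26 in LN4 lungs, 5.80 and 5.92 in PC3 lungs, and 5.69 and 5.65 in Control lungs. Its LN4 arrays lay above the PC3 arrays and these above the Control arrays, with LN4 minus Control at 0.60 ± 0.17 (unadjusted p = 0.00940, limma) and LN4 minus PC3 at 0.41. Orc2 had an LN4 minus Control difference of 0.38 ± 0.25. Gmnn, the inhibitor of relicensing, had a PC3 minus Control difference of -0.41 ± 0.21, Prim2, a primase subunit, one of 0.33 ± 0.17, and Dut, which keeps uracil out of DNA, an LN4 minus PC3 difference of 0.50 ± 0.19.

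Of 45 other mitosis genes, 33 were tested, and the mean was higher for 27 in LN4 and 26 in PC3 lungs than in Control lungs, with median differences of 0.16 and 0.12, beside the same 46.9% and 53.4% of all tested probe sets. Cdca2 and Kif2c differed from Control by 0.39 ± 0.19 and 0.36 ± 0.18 in LN4 lungs, and Ckap2 by 0.42 ± 0.19 in PC3 lungs. Pttg1, securin, was bright on all arrays and lower in PC3 lungs, at -0.46 ± 0.20 with 8.64 and 8.43 in PC3 lungs against 9.01 and 8.98 in Control lungs. Its LN4 values, 8.87 and 8.52, were lower than in Control lungs too. Mad2l1, a checkpoint protein, had an LN4 minus PC3 difference of -0.55 ± 0.28, with 6.44 and 6.83 in LN4 lungs against 6.85 and 7.51 in PC3 lungs.

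Genes that act before S phase, and inhibitors of the cycle, came next. Of 14 tested G1 cyclins, their kinases and E2F genes, the mean was higher for 6 in LN4 and 11 in PC3 lungs than in Control lungs, with medians of -0.03 and 0.08. In LN4 lungs that is near the 46.9% higher and the median of -0.02 of all tested probe sets, and in PC3 lungs the matching values over all were 53.4% and 0.02. E2f8, a repressor of the E2F family, was at 5.21 and 6.03 in LN4 lungs, 5.08 and 5.03 in PC3 lungs, and 4.93 and 5.02 in Control lungs, and its LN4 minus Control difference was 0.64 ± 0.28, with LN4 replicate 3 above all other arrays. Cdk6, a G1 kinase, had an LN4 minus PC3 difference of -0.42 ± 0.19, and Cdk2 and E2f3 had PC3 minus Control differences of 0.34 ± 0.24 and -0.24 ± 0.20. Of 15 cell cycle inhibitors, the mean was higher for 6 in LN4 and 11 in PC3 lungs than in Control lungs, with medians of -0.02 and 0.15, beside the same shares and medians over all, and the LN4 values are again near them.

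Cdkn1a, which encodes the p21 inhibitor of cyclin-dependent kinases, was at 7.63 and 9.85 in LN4 lungs, 7.82 and 7.73 in PC3 lungs, and 7.44 and 7.35 in Control lungs. Its LN4 minus Control difference was 1.35 ± 0.62, with LN4 replicate 3 more than 2 units above every other array. Cdkn2c, another such inhibitor, was likewise highest in LN4 replicate 3, with 6.59 and 7.61 in LN4 lungs against 6.32 and 6.57 in Control lungs. In the same array Krt13, a keratin of squamous epithelium, stood at 13.61, compared with 5.16 and 4.63 in Control lungs, and its part in the inhibitors' levels was not tested. Btg2, an antiproliferative gene, had an LN4 minus PC3 difference of -0.44 ± 0.18, Gas1 and Cdkn2a had PC3 minus Control differences of 0.31 ± 0.23 and -0.32 ± 0.28, and Cdkn2a had an LN4 minus PC3 difference of 0.48 ± 0.28.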

How the data were processed

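Whole lung RNA of 6 mice, 2 per group, was hybridised to Affymetrix mouse gene arrays. The authors deposited log2 values made with RMA, per the submitters' processing notes. RMA corrects background, equalises the arrays' distributions and summarises probes, so each value depends on all 6 arrays. The sources used here name no software or version for it. The percent of detected exon-level probe sets came from the authors' chip report, per the file headers. It served to call the arrays of each group low- or high-detection.

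Of 35556 probe sets, 7116 controls and the dimmest 25% of the remainder, by mean over the 6 arrays, were left out, and 21330 stayed. Symbols were updated through RefSeq's GRCm38.p6 gene table. A limma model of 3 group means was fitted to all 6 arrays with default empirical Bayes moderation (prior degrees of freedom 3.885, residual 3), with two-sided tests and Benjamini-Hochberg adjustment at 0.05 (R 4.3.3, limma 3.58.1, Python 3.11.15). P-values rest on the spread between the 2 mice of a group, pooled over the 3 groups.

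The members, lists, alternatives and rule for named genes were chosen with earlier results of these data known. The rule gives values for Mki67, Top2a, Ccnb1, Cdk1, Mcm2, Mcm5, Pcna and Rrm2, and per comparison for the 3 replication and 5 mitosis genes of smallest unadjusted p. Of each other list it takes up to 2 genes per comparison. The values of further members are given by role and were chosen after they were seen. The fit was tested on simulated data for PC3 minus Control over 21330 probe sets. With the spread of all 6 arrays it recovered 6 of 100 changes of 1 and 64 of 100 changes of 2 on the log2 scale, with 0 false calls. With the spread of the Control arrays alone it recovered 45 and 80, with 9 false calls.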

Additional observations from a re-analysis of the deposited data

How the results depend on the processing

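No probe set passed the adjusted threshold in PC3 minus Control, LN4 minus Control or LN4 minus PC3 without the filter, with the stricter filter, with array weights (equal within each group), with detection class as a block, after centring or a second quantile normalization, with trend and robust moderation, with the mean of a gene's probe sets, or with only the 4 arrays compared. Leaving out 1 array in turn gave 0 to 853 passing probe sets in LN4 minus Control and 0 to 715 in LN4 minus PC3, with 853 and 715 without LN4 replicate 1, and 0 passing members each time. Leaving out LN4 replicate 3 and PC3 replicate 4 together, so that 1 residual degree of freedom from the Control arrays remained, gave 514 passing probe sets in PC3 minus Control, 200 in LN4 minus Control and 2593 in LN4 minus PC3. PC3 minus Control was then 0.73 for Mcm4 and 0.80 for Top2a, and LN4 minus PC3 was -0.78 for Rrm1, -0.88 for Mcm6 and -0.84 for Top2a. There the mitosis medians were 0.29, 0.15 and -0.057, the replication median in LN4 minus Control was -0.020 with 5 of 11 higher, and signs turned for Pcna (0.083 in PC3 minus Control, -0.020 in LN4 minus Control, -0.10 in LN4 minus PC3), Mki67 (-0.11), Top2a (-0.042) and Mcm5 (-0.18) in LN4 minus Control, and Ccnb1 (-0.31) in LN4 minus PC3, while Mki67 and Mcm5 stood at -0.41 and -0.53 in LN4 minus PC3.

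With 1 array left out in turn, PC3 minus Control medians were 0.20 to 0.36 for replication and 0.11 to 0.29 for mitosis, with Ccnb1 at -0.13 to 0.44 and Pcna at -0.17 to 0.083. LN4 minus Control medians were -0.020 to 0.40, with 5 to 10 of 11 higher, and 0.15 to 0.42, with Mki67 at -0.11 to 0.47, Top2a at -0.042 to 0.87, Mcm5 at -0.18 to 0.46 and Pcna at -0.020 to 0.11. LN4 minus PC3 medians were -0.14 to 0.076 and -0.0017 to 0.18, with Mki67 at -0.40 to 0.18, Top2a at -0.50 to 0.42, Ccnb1 at -0.028 to 0.99, Cdk1 at -0.090 to 0.22, Mcm2 at -0.16 to 0.0024, Mcm5 at -0.43 to 0.21, Pcna at -0.036 to 0.22 and Rrm2 at -0.010 to 0.20. Between low-detection arrays the mitosis medians were 0.071 (PC3 minus Control), 0.11 (LN4 minus Control) and -0.0031 (LN4 minus PC3), and the LN4 minus Control replication median was 0.021. Signs turned there for Top2a (-0.023) and Ccnb1 (-0.043) in PC3 minus Control, Mki67 (-0.037), Top2a (-0.18) and Mcm5 (-0.18) in LN4 minus Control, and Cdk1 (-0.16) in LN4 minus PC3. Between high-detection arrays the medians were 0.27 for mitosis in PC3 minus Control, 0.32 and 0.40 for replication and mitosis in LN4 minus Control, and 0.030 for replication in LN4 minus PC3. Signs turned for Pcna (0.041) in PC3 minus Control, and for Mki67 (0.17), Top2a (0.074), Mcm2 (0.066), Mcm5 (0.11), Rrm2 (-0.022) and Birc5 (-0.016) in LN4 minus PC3. With the dimmest 50% left out, 2 mitosis genes were tested, of which 1, 2 and 1 had higher means in PC3 minus Control, LN4 minus Control and LN4 minus PC3, with a median of 0.18 in LN4 minus Control, and 3 of 9 replication genes had higher means in LN4 minus PC3. No paired analysis was possible because the groups share fewer than 2 replicate numbers (Control and PC3 share number 4, and LN4 shares none). Signals near background limit what these arrays can show for 31 of the 36 genes. The cause of these shifts was not tested.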
